A study of Homo sapiens with 9 samples.

Results

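The 9 genes ATF3, ATF4, ATF5, CEBPA, CEBPB, CEBPD, CEBPG, DDIT3 and JDP2 encode basic leucine zipper (bZIP) transcription factors of the ATF and C/EBP families. They were taken by symbol from an expression table of 22587 genes, and all 9 were found there. The table comes from RNA-seq of HepG2, a human liver tumor line that is widely used and established, grown in high-glucose DMEM with fetal bovine serum. It holds 3 libraries from cells with glutamine (Gln) added, named ADD in the table, 3 from cells deprived of Gln for 12 h (DE12) and 3 from cells deprived for 24 h (DE24). The labels name no genetic alteration in any group. The labels give GlutaMAX, a stable dipeptide form of Gln, as the treatment of the group with added Gln, whereas both the treatment protocol and the methods of the study list it for the deprivation medium. All libraries come from the same cell line, and no label says whether the 3 libraries of a group came from separate cultures, so that p-values measure the spread between these libraries, which may be technical. Values are FPKM, in which fragment numbers are scaled for gene length and sequencing depth.

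bZIP factors bind DNA as dimers held together by a leucine zipper, and the choice of partner decides which sequence is bound. When an amino acid runs short, the kinase GCN2 phosphorylates the translation factor eIF2α, which lowers protein synthesis in general but lets the ATF4 mRNA be translated through its upstream open reading frames. ATF4 protein then pairs with C/EBP factors on composite C/EBP-ATF response elements (CAREs) and switches on genes of amino acid supply as well as other bZIP genes, among them ATF3 and DDIT3. In liver cells, C/EBPα and C/EBPβ are also known as regulators of metabolic and acute phase genes. RNA-seq measures the transcripts and says nothing of how much protein was made from them.

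The CARE was searched for as TGATGNAA, on both strands, in the 500 bases before the start of the canonical transcript of each gene (GENCODE v44, GRCh38). It was found before 3 of the 9 genes, ATF3, DDIT3 and JDP2, and in 4.75% of the windows of all 20007 protein-coding genes (3.21% of the windows of genes tested for expression). In a second set of shorter promoter windows, which held 8 of the 9 genes, only ATF3 had a match. It read TGATGGAA and lay before another start of the gene, and 3.67% of the 27305 promoters of that set had a match. The count thus depends on the window and the start used. The stretches from the windows of 500 bases are shown because ATF3, DDIT3 and JDP2 were all called higher after deprivation below. They read 5′ to 3′ in the direction of the gene, with the match in capitals. TTGCATCA is TGATGCAA on the other strand.
ATF3, 203 bases before the start (chr1:212608528-212608595, plus strand): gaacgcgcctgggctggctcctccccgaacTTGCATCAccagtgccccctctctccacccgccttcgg
ATF3, 21 bases before the start (chr1:212608729-212608758, plus strand): tataaaaggggTGATGCAAcgctctccaag
DDIT3, 306 bases before the start (chr12:57520783-57520850, minus strand): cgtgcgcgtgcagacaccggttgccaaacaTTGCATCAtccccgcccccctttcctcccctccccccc
JDP2, 16 bases before the start (chr14:75427976-75428021, plus strand): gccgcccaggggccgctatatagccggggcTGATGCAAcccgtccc
All 4 matches shown had C at the free position of the motif. The stretch of ATF3 closest to the start lies in or next to an exon of another ATF3 transcript. The start is that of the canonical transcript, and all 4 stretches lie within the limits of their genes given below. CEBPB, CEBPG and ATF4, which rose as well, held no such letters in their windows, and neither did ATF5, CEBPA or CEBPD. A match describes the letters in the window and is not evidence that a factor bound there.

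The AP-1 motif TGACTCA, a sequence bound by dimers of JUN with FOS or with some ATF factors, was found before DDIT3 and ATF5 and in 6.07% of all windows. These 2 stretches are shown because the genes behaved differently, DDIT3 rising and ATF5 not.
DDIT3, 241 bases before the start (chr12:57520738-57520766, minus strand): gcgcgcgcgcaTGACTCAcccacctcctc
ATF5, 487 bases before the start (chr19:49928707-49928735, plus strand): ggagagtgctgTGACTCAtgctggactct
The stretch of DDIT3 also lies in or next to an exon of MBD6, and that of ATF5 in or next to exons of other ATF5 transcripts and of NUP62. Both stretches lie within the limits of their genes given below. The cAMP response element TGACGTCA (2.89% of all windows) and the C/EBP palindrome TTGCGCAA (0.295%) were in the window of none of the 9 genes.

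The fragment totals behind the FPKM, solved from the deposited values, were between 29621270 and 36261546 per library, and 17998 to 18594 genes had a value above 0. The defining hepatocyte markers were present. ALB lay between 3230 and 3908 FPKM, and all 10 hepatocyte lineage markers were tested. Their sum was 9955 to 10010 FPKM in Gln-added cells, 8608 to 8903 at 12 h and 8663 to 9187 at 24 h. Of the 6 fibroblast markers in the table, 5 stayed at or below 0.0171 FPKM, and PDGFRB carried nearly all of a sum that was 0.113 to 0.181 FPKM in Gln-added cells, 0.317 to 0.518 at 12 h and 0.608 to 0.780 at 24 h. The 3 endothelial markers summed to at most 0.366 FPKM, with CDH5 at or near 0. Of the 3 blood cell markers, CD79A was at most 0.313 FPKM, but LYZ was 524 to 785 FPKM and CD68 was 21.2 to 36.3 FPKM in these cells, and both fell at 12 h. The part of these markers in the results was not tested.

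Of the 9 bZIP genes, 6 were higher after Gln deprivation at both times: DDIT3, ATF3, CEBPB, JDP2, CEBPG and ATF4. CEBPA and CEBPD were lower at both times, and ATF5 was lower at 24 h. Differences were tested with limma on log2(FPKM + 0.1) over the 11880 genes that averaged 0.5 FPKM or more, with all 9 libraries in a single fit and an adjusted p (Benjamini-Hochberg) below 0.05 as the threshold. At 12 h 8 of the 9 genes passed (6 higher, 2 lower), against 60.2% of all genes tested (29.1% higher and 31% lower). At 24 h all 9 passed (6 higher, 3 lower), against 64.7% of all genes tested (33% higher and 31.7% lower). Passing the threshold was therefore common among all genes. Each of the 6 risers was higher by at least 0.8 on the log2 scale at both times. This size was not planned and lies just under the smallest of the 6 rises, that of ATF4 (0.88 and 0.85). That all 6 reached it follows from this choice and is no result. Of all genes, 3.72% passed with this size at 12 h and 5.23% at 24 h. With 1 in place of 0.1 added before the logarithm, JDP2 was below it at 12 h (0.70). Both comparisons use the same 3 Gln-added libraries. In bulk RNA, fewer cells that make a transcript and less transcript per cell cannot be told apart.

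**Figure D1:**
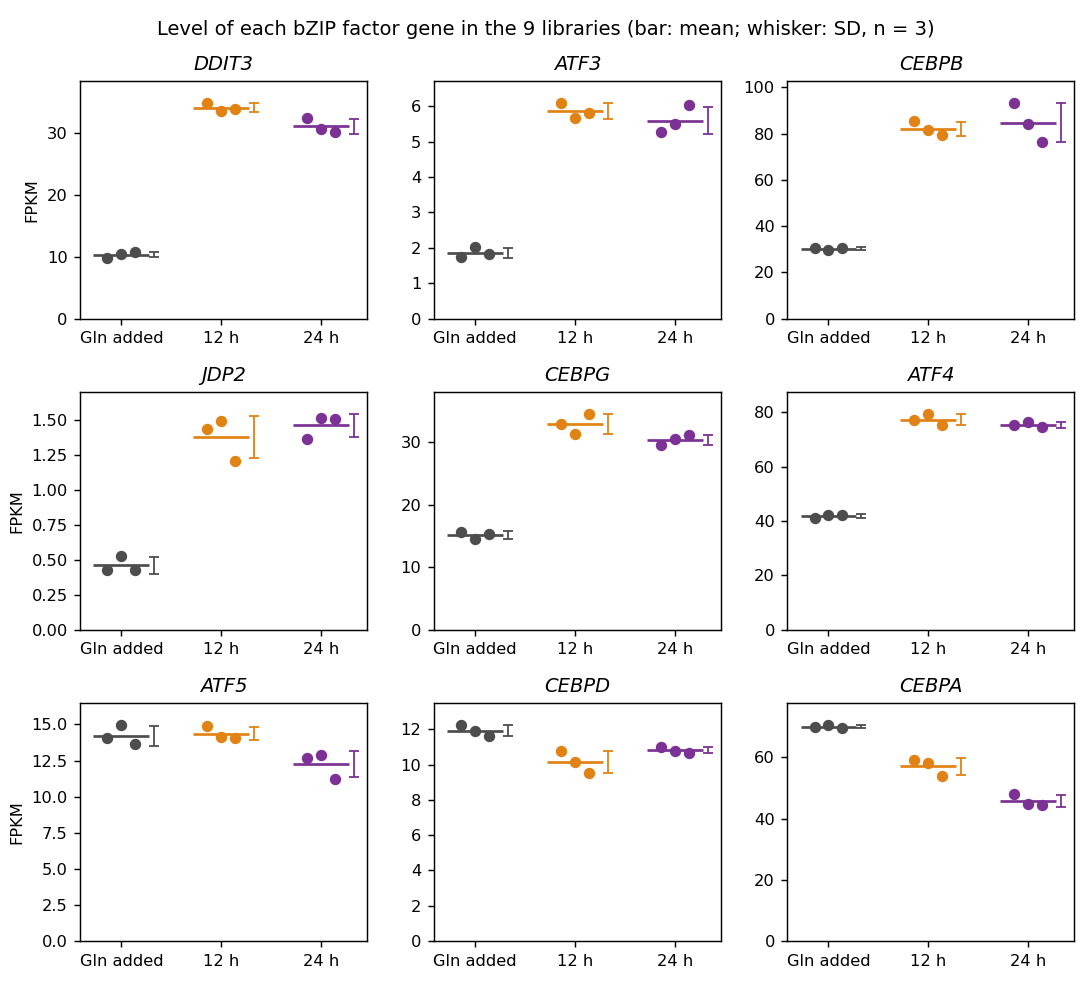
Level in FPKM (y axis, from 0) of each of the 9 genes in the 3 Gln-added libraries, after 12 h and after 24 h of Gln deprivation; points are libraries, bars are means and whiskers are SD (n = 3). DDIT3 goes from 9.82 to 10.7 FPKM in Gln-added cells to 33.5 to 34.8 FPKM at 12 h, whereas CEBPA goes from 69.7 to 70.7 FPKM down to 44.5 to 48.1 FPKM at 24 h.

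DDIT3 encodes CHOP, a C/EBP family member that does not bind the classical C/EBP sequence and is known for its part in cell death under prolonged stress. The gene lies on chromosome 12 from 57516588 to 57521737, on the minus strand. Its level was 9.82, 10.4 and 10.7 FPKM in the Gln-added libraries, 34.8, 33.5 and 33.7 FPKM at 12 h, and 32.4, 30.6 and 30.01 FPKM at 24 h. Each deprived library was far above the highest Gln-added library, and the libraries at 24 h were all below those at 12 h. The mean rose 3.31-fold at 12 h, a log2 fold change of 1.72 (SE 0.0446, limma adjusted p = 4.98e-10), and 3.01-fold at 24 h, a log2 fold change of 1.58 (limma adjusted p = 7.17e-10). The rise at 12 h was the 50th largest of 11880. MARS1, which encodes methionyl-tRNA synthetase and runs the other way, shares 27.2% of the exonic bases of DDIT3 with its own exons, and a protein-coding gene on the strand of DDIT3 itself, named only by an Ensembl identifier, shares 8.03%. MARS1 itself went from 44.4 ± 0.937 FPKM in Gln-added cells to 139 ± 2.70 at 12 h and to 136 ± 4.61 at 24 h (SD, n = 3). Whether strand was used in counting is not given, so fragments from the shared bases cannot be assigned to either gene with certainty.

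ATF3 is a repressor and activator that is induced by many kinds of stress. It lies on chromosome 1 from 212565334 to 212620777, on the plus strand. Its level was low in Gln-added cells, at 1.73, 2.02 and 1.83 FPKM, and reached 6.10, 5.66 and 5.81 FPKM at 12 h and 5.27, 5.49 and 6.02 FPKM at 24 h. The deprived libraries lay above all Gln-added libraries, and the ranges of the 2 times overlapped. The log2 fold change was 1.61 at 12 h (SE 0.0734, limma adjusted p = 3.02e-08) and 1.54 at 24 h (limma adjusted p = 2.67e-08), from 177 to 202 fragments per Gln-added library and 518 to 602 in the deprived libraries. On the linear scale these were 3.15-fold and 3.01-fold rises of the mean.

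JDP2, a repressor that dimerizes with JUN and ATF factors, was the least expressed of the 9 genes. It lies on chromosome 14 from 75427716 to 75474111, on the plus strand. It had 0.428, 0.528 and 0.425 FPKM in Gln-added cells, 1.44, 1.49 and 1.21 FPKM at 12 h, and 1.37, 1.52 and 1.51 FPKM at 24 h. Deprived and Gln-added libraries did not overlap. The log2 fold change was 1.40 at 12 h (SE 0.125, limma adjusted p = 4.56e-06) and 1.48 at 24 h (limma adjusted p = 2.06e-06). With Gln added its mean was 0.461 FPKM, so that it passed the filter of 0.5 FPKM through the deprived libraries; 8 genes at 12 h and 9 at 24 h also passed the test when no filter on low values was used. Its fold change on the log2 scale depends on the value added before the logarithm and ranged from 0.70 to 1.58 at 12 h over the alternatives, whereas the ratio of the means was 2.99 at 12 h and 3.18 at 24 h.

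ATF4, the factor whose translation is raised when eIF2α is phosphorylated, was also higher as a transcript. The gene lies on chromosome 22 from 39519695 to 39522683, on the plus strand. Its level was 41.0, 42.3 and 42.3 FPKM in Gln-added cells, 77.2, 79.5 and 75.5 FPKM at 12 h, and 75.4, 76.7 and 74.5 FPKM at 24 h. The replicates were close to each other, with a coefficient of variation of at most 2.60% in a group, and the 2 times overlapped. ATF4 rose 1.85-fold at 12 h, a log2 fold change of 0.88 (SE 0.0331, limma adjusted p = 7.51e-09), and 1.80-fold at 24 h, a log2 fold change of 0.85 (limma adjusted p = 5.92e-09). By the ratio of the means this was the smallest rise of the 6, in place 344 among all genes at 12 h. The 95% confidence interval of the ATF4 rise at 12 h, 0.81 to 0.96, lay below the intervals of the other 5, the nearest of which was that of CEBPG, 1.01 to 1.22. At 24 h the interval of ATF4, 0.78 to 0.92, overlapped that of CEBPG, 0.9 to 1.1. With 1 added before the logarithm, the log2 rise of JDP2 at 12 h (0.70) was smaller than that of ATF4 (0.87).

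ATF5 is a close relative of ATF4 and is known to be translated through a similar mechanism, but its transcript was not called higher at either time. It lies on chromosome 19 from 49928702 to 49933935, on the plus strand. Its level was 14.05, 14.97 and 13.63 FPKM in Gln-added cells and 14.9, 14.1 and 14.1 FPKM at 12 h, and the ranges overlapped. At 24 h it was 12.7, 12.9 and 11.2 FPKM, below every other library. Its log2 fold change was 0.02 at 12 h (95% confidence interval -0.12 to 0.15, limma adjusted p = 0.828) and -0.21 at 24 h (limma adjusted p = 0.00872). From 12 h to 24 h it fell by 0.23 (limma adjusted p = 0.0211), a call that was lost without the 12 h replicate 1 (-0.20) and without the 24 h replicate 3 (-0.17). NUP62, a nuclear pore gene that runs the other way, shares 19.5% of the exonic bases of ATF5, and it went from 25.6 ± 0.213 FPKM to 20.3 ± 1.61 at 12 h and to 19.5 ± 0.724 at 24 h (SD, n = 3).

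**Figure D2:**
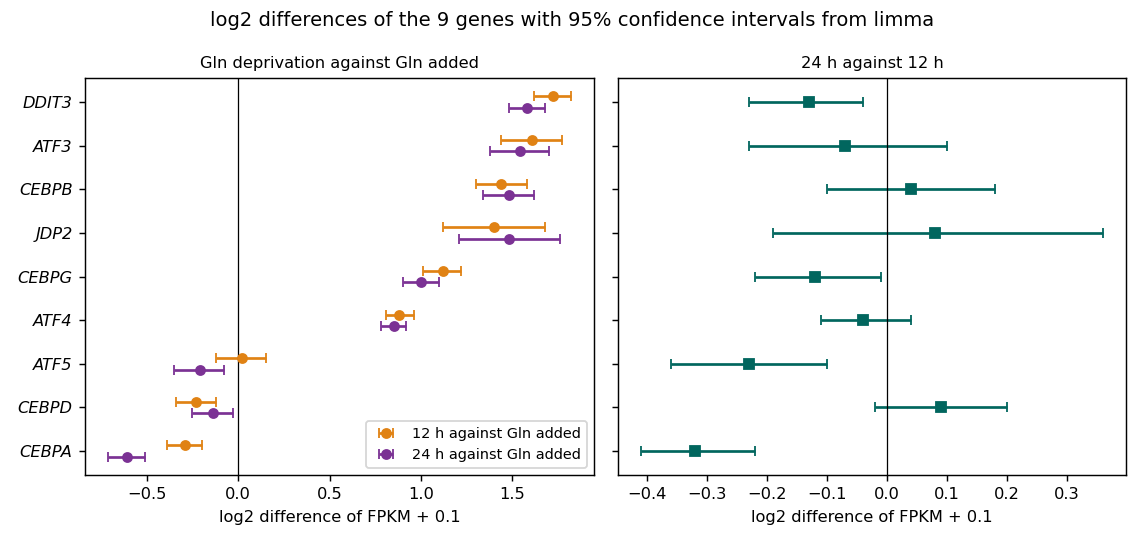
Difference of log2(FPKM + 0.1) for the 9 genes (x axis) with its 95% confidence interval from limma, for 12 h (orange) and 24 h (purple) of Gln deprivation against Gln added on the left and for 24 h against 12 h on the right, where the x axis has another scale. The 6 risers lie between 0.85 and 1.72 on the left, and on the right the intervals of ATF5 and CEBPA lie furthest below 0.

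Within the C/EBP family, CEBPB and CEBPG went up and CEBPA and CEBPD went down. CEBPB encodes C/EBPβ, a partner of ATF4 and a regulator of acute phase genes. The gene lies on chromosome 20 from 50190830 to 50192668, on the plus strand. Its level was 30.6, 29.6 and 30.6 FPKM in Gln-added cells, 85.5, 81.4 and 79.5 FPKM at 12 h, and 93.4, 84.3 and 76.4 FPKM at 24 h. The 3 libraries at 24 h were spread on both sides of those at 12 h, with a coefficient of variation of 10.1%, against 1.92% in Gln-added cells. CEBPB rose 2.72-fold at 12 h, a log2 fold change of 1.44 (SE 0.0627, limma adjusted p = 2.11e-08), and 2.80-fold at 24 h, a log2 fold change of 1.48 (limma adjusted p = 1.13e-08). The mean gained 51.9 FPKM at 12 h and 54.4 FPKM at 24 h. The antisense lncRNA CEBPB-AS1 shares 12.6% of its exonic bases, and CEBPB-AS1 was 2.34 ± 0.253 FPKM in Gln-added cells, 4.75 ± 0.432 at 12 h and 6.36 ± 1.85 at 24 h (SD, n = 3). The 24 h library with the highest CEBPB-AS1, replicate 2 with 8.47 FPKM, was the middle one for CEBPB.

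CEBPG encodes C/EBPγ, a small family member without a classical activation domain that pairs with ATF4. The gene lies on chromosome 19 from 33373685 to 33382686, on the plus strand. It had 15.7, 14.4 and 15.3 FPKM in Gln-added cells, 32.9, 31.4 and 34.5 FPKM at 12 h, and 29.5, 30.5 and 31.1 FPKM at 24 h. All 24 h libraries were below all 12 h libraries, and all deprived libraries were above those in Gln-added cells. The log2 fold change was 1.12 at 12 h (SE 0.0471, limma adjusted p = 1.84e-08) and 1.00 at 24 h (limma adjusted p = 2.41e-08), that is 2.18-fold and 2.01-fold.

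CEBPA encodes C/EBPα, which holds liver cells in a differentiated and resting state. The gene lies on chromosome 19 from 33299934 to 33302534, on the minus strand. By the deposited FPKM it was the most abundant of the 9 genes in Gln-added cells, at 69.8, 70.7 and 69.7 FPKM, and fell to 59.2, 58.4 and 53.9 FPKM at 12 h and to 48.1, 44.9 and 44.5 FPKM at 24 h. The 3 groups did not overlap. On the log2 scale CEBPA fell by 0.29 at 12 h (SE 0.0442, limma adjusted p = 0.000197) and fell by 0.61 at 24 h (limma adjusted p = 6.14e-07). From 12 h to 24 h it fell by 0.32 (limma adjusted p = 0.00074). Exons of 2 antisense lncRNAs, named only by Ensembl identifiers, lie over 43.9% of the exonic bases of CEBPA.

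CEBPD encodes C/EBPδ, known as an early factor of the acute phase response, and lies on chromosome 8. It had 12.3, 11.9 and 11.6 FPKM in Gln-added cells, 10.8, 10.2 and 9.53 FPKM at 12 h, and 11, 10.8 and 10.7 FPKM at 24 h. The deprived libraries were all below those in Gln-added cells, by small amounts. CEBPD fell by 0.23 at 12 h on the log2 scale (SE 0.0505, limma adjusted p = 0.00241). At 24 h it fell by 0.14 (limma adjusted p = 0.0316), but this call was lost when FPKM were rescaled to the same total (-0.09), when fragments were tested with voom (-0.14) and when replicate 1 or 2 in Gln-added cells or replicate 2 or 3 at 24 h was left out (-0.14 to -0.12). The remaining family member CEBPE was listed at 0 in 8 libraries and had 1 fragment in the other.

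The C/EBP transcripts as a whole thus changed in both amount and make-up. Summed over CEBPA, CEBPB, CEBPD and CEBPG, they came to 127 ± 0.854 FPKM in Gln-added cells, 182 ± 5.48 FPKM at 12 h and 172 ± 9.76 FPKM at 24 h (SD, n = 3). CEBPA made up 54.4% to 55.8% of the sum in Gln-added cells, 30.4% to 32.2% at 12 h and 26.3% to 27.4% at 24 h. The share of CEBPB went from 23.4% to 24.0% in Gln-added cells to 44.8% to 45.4% at 12 h and 46.9% to 51.3% at 24 h. None of these ranges overlapped between groups. The ratio of CEBPB to CEBPA was 0.438, 0.418 and 0.439 in Gln-added cells, 1.44, 1.39 and 1.47 at 12 h, and 1.94, 1.88 and 1.71 at 24 h, so that CEBPA was the more abundant in Gln-added cells and CEBPB in every deprived library. CEBPG went from 11.9% ± 0.416 to 18.1% ± 1.21 at 12 h and 17.7% ± 1.45 at 24 h, and CEBPD from 9.36% ± 0.221 to 5.57% ± 0.181 and 6.31% ± 0.259 (SD, n = 3).

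**Figure D3:**
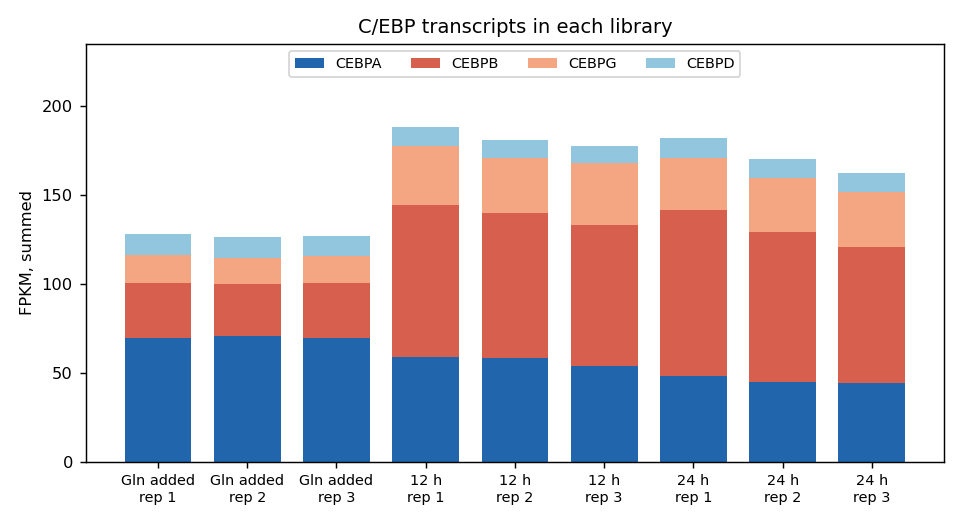
FPKM of CEBPA, CEBPB, CEBPG and CEBPD stacked for each of the 9 libraries (y axis, summed FPKM; x axis, library). The stacks grow from 127 to 128 FPKM in Gln-added cells to 163 to 188 FPKM after deprivation, while the CEBPA segment at the bottom shrinks and the CEBPB segment above it grows.

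The level of DDIT3 was also set against those of its partners. DDIT3 transcripts were 0.340 ± 0.0165 of CEBPB in Gln-added cells, 0.415 ± 0.00861 at 12 h and 0.368 ± 0.0234 at 24 h, and 0.246 ± 0.00631, 0.440 ± 0.0158 and 0.410 ± 0.0169 of ATF4 (ratios of FPKM, SD, n = 3). The range of the ratio to ATF4 in Gln-added cells, 0.240 to 0.252, was below that of both deprived groups. For the ratio to CEBPB, the range in Gln-added cells, 0.321 to 0.351, overlapped that at 24 h, 0.347 to 0.393, but not that at 12 h, 0.408 to 0.424.

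The order of the levels changed with deprivation. With Gln added it ran CEBPA, ATF4, CEBPB, CEBPG, ATF5, CEBPD, DDIT3, ATF3 and JDP2 from the highest mean FPKM to the lowest, and only CEBPG and ATF5 had overlapping ranges as neighbours. At 12 h and at 24 h it ran CEBPB, ATF4, CEBPA, DDIT3, CEBPG, ATF5, CEBPD, ATF3 and JDP2, with overlapping ranges between CEBPB and ATF4 and between DDIT3 and CEBPG. The sum over the 9 genes was 195 to 197 FPKM in Gln-added cells, 308 to 323 FPKM at 12 h and 286 to 309 FPKM at 24 h.

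Levels of different genes can be compared only as far as the gene length behind the FPKM is right. The length that the deposited values imply for ATF4 was 7716 bases, 5.44 times the 1419 bases of its canonical transcript and more than the 2613 exonic bases of the gene in GENCODE v44. For JDP2 it was 12624 bases, 2.35 times the canonical 5378, and for the other 7 genes it was 1 to 1.48 times the canonical length. With the canonical lengths, ATF4 would be at 228 FPKM in Gln-added cells, 421 at 12 h and 411 at 24 h, the highest of the 9 genes in every group, and ATF5 would pass CEBPG and DDIT3 would pass CEBPD in Gln-added cells. Ratios of a gene's mean FPKM between groups do not depend on this length. Log2 fold changes of low genes do, because a fixed value was added before the logarithm. With the canonical length, JDP2 would be at 1.081 FPKM in Gln-added cells in place of 0.461. The ratios of DDIT3 to ATF4 and to CEBPB and of CEBPB to CEBPA also depend on the lengths. So do the C/EBP sum and its shares, and the sum over the 9 genes. Which bases the length behind the ATF4 values covers was not tested.

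Between the 2 times of deprivation 2 of the 9 genes passed the test, ATF5 and CEBPA, both lower at 24 h than at 12 h. This share was close to that of all genes tested, of which 20.1% passed (9.57% higher, 10.5% lower). Among the 6 risers the log2 difference of 24 h from 12 h was -0.13 for DDIT3 (95% confidence interval -0.23 to -0.04, limma adjusted p = 0.0568) and -0.12 for CEBPG (-0.22 to -0.01, limma adjusted p = 0.112). It was -0.07 for ATF3 (-0.23 to 0.10), -0.04 for ATF4 (-0.11 to 0.04), 0.04 for CEBPB (-0.10 to 0.18) and 0.08 for JDP2 (-0.19 to 0.36). For CEBPD it was 0.09 (-0.02 to 0.20). With median-ratio scaling between libraries DDIT3 (-0.17) and CEBPG (-0.15) passed as well, which made 4 genes lower at 24 h. Without the 24 h replicate 1, DDIT3 passed in the same way (-0.17). These intervals leave room for differences of the size of the fall in ATF5 for several of the genes that did not pass. For each of the 9 genes the two-sided exact permutation test of 3 libraries against 3 could not go below p = 0.1, the value it gave wherever groups did not overlap. That was so for 8 genes at 12 h and all 9 at 24 h against Gln added, where 67.2% and 69.9% of all genes tested did not overlap either, and for ATF5, CEBPA, CEBPG and DDIT3 between the 2 times, against 34.4% of all genes.

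Other bZIP factors of the CREB, ATF and PAR groups went both ways. Of the 24 in a list drawn up from general knowledge, with earlier results of these data known, 20 passed the filter on low values. At 12 h 7 were higher and 4 lower, with a median log2 fold change of 0.05 against -0.02 over all genes. At 24 h 9 were higher and 7 lower, with a median of -0.01 against 0.01. Over all genes tested, 29.1% were higher and 31% lower at 12 h, and 33% and 31.7% at 24 h. NFIL3, a PAR-related repressor, rose from 15.3 ± 1.097 FPKM to 37.5 ± 1.78 at 12 h and to 36.5 ± 1.18 at 24 h (SD, n = 3), a log2 fold change of 1.29 and 1.25 (limma adjusted p = 2.05e-08 and 1.65e-08). BATF, a JUN partner without an activation domain, rose by 1.20 and 1.63 from 1.38 FPKM, and BATF2 rose by 0.63 and 0.67 from 1.62 FPKM. The membrane-bound factors CREB3 and CREB3L4 were lower, with log2 fold changes of -0.42 and -0.49 at 12 h and of -0.17 and -0.20 at 24 h (largest limma adjusted p = 0.0231). Of the circadian PAR factors, TEF had log2 fold changes of -0.35 and -0.42 (limma adjusted p = 0.0164 and 0.00647), and DBP fell by 0.64 at 12 h (limma adjusted p = 0.0364) and was at -0.17 at 24 h (adjusted p = 0.553). ATF2 was at -0.16 at 12 h (adjusted p = 0.139) and fell by 0.22 at 24 h (limma adjusted p = 0.0436). The call of DBP rests on the 12 h replicate 1, without which its log2 fold change was -0.32 and did not pass, and it was also lost without any 1 of the Gln-added libraries. The call of TEF at 12 h was lost without the 12 h replicate 1 or the Gln-added replicate 1 or 2, with log2 fold changes of up to -0.30. At 24 h ATF2 was at -0.12 and did not pass without the 24 h replicate 1, and it was lost in 4 other fits that left out a library. CREB3L4 at 24 h lost its call without the Gln-added replicate 1 or 3 or the 24 h replicate 1 or 3, with log2 fold changes of up to -0.18.

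Most of the tested genes that ATF4 or CHOP are known to activate were higher. The list holds 42 genes, of which 40 passed the filter; CHAC1 and FGF21 were too low. At 12 h 37 were higher and 2 lower, with a median log2 fold change of 1.18, and at 24 h 39 were higher and 1 lower, with a median of 1.12. For comparison, 29.1% and 33% of all genes were higher. The list was drawn up with earlier results of these data known, so these counts only describe it. TGATGNAA was found in the windows before 14 of the 42 genes. PPP1R15A, which encodes the phosphatase subunit GADD34 that removes the phosphate from eIF2α, went from 6.59 ± 0.280 FPKM to 28.2 ± 1.12 at 12 h and to 29.7 ± 0.389 at 24 h (SD, n = 3), a log2 fold change of 2.08 and 2.15 (limma adjusted p = 1.56e-10 and 1.19e-10). ADM2, a peptide hormone, went from 0.965 to 4.40 and 5.65 FPKM (log2 fold change 2.08 and 2.43). ASNS, asparagine synthetase, went from 0.128 FPKM to 1.81 and 1.43, with between 14 and 218 fragments in a library, so that it passed the filter on low values through the deprived libraries only. The log2 fold changes of ASNS, 3.06 and 2.74, depend on the value added before the logarithm, and at 12 h they ranged from 1.31 to 3.76 over the alternatives. Exons of a lncRNA gene on its own strand, in GENCODE v44, lie over 49.3% of the exonic bases of ASNS, so that its level is uncertain. The 2 that were lower at 12 h encode factors of protein folding and disposal in the endoplasmic reticulum. ERO1A, an oxidase of disulfide formation, fell by 0.29 at 12 h (limma adjusted p = 0.00401) and fell by 0.17 at 24 h (limma adjusted p = 0.049). HERPUD1, a factor of endoplasmic reticulum-associated degradation, fell by 0.21 at 12 h and rose by 0.15 at 24 h (limma adjusted p = 0.00271 and 0.0162). At 24 h ERO1A was at -0.10 and did not pass without the 24 h replicate 1, and its call was lost in 5 other fits that left out a library. The call of HERPUD1 at 24 h was lost without the Gln-added replicate 1 or the 24 h replicate 1 (0.12).

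**Figure D4:**
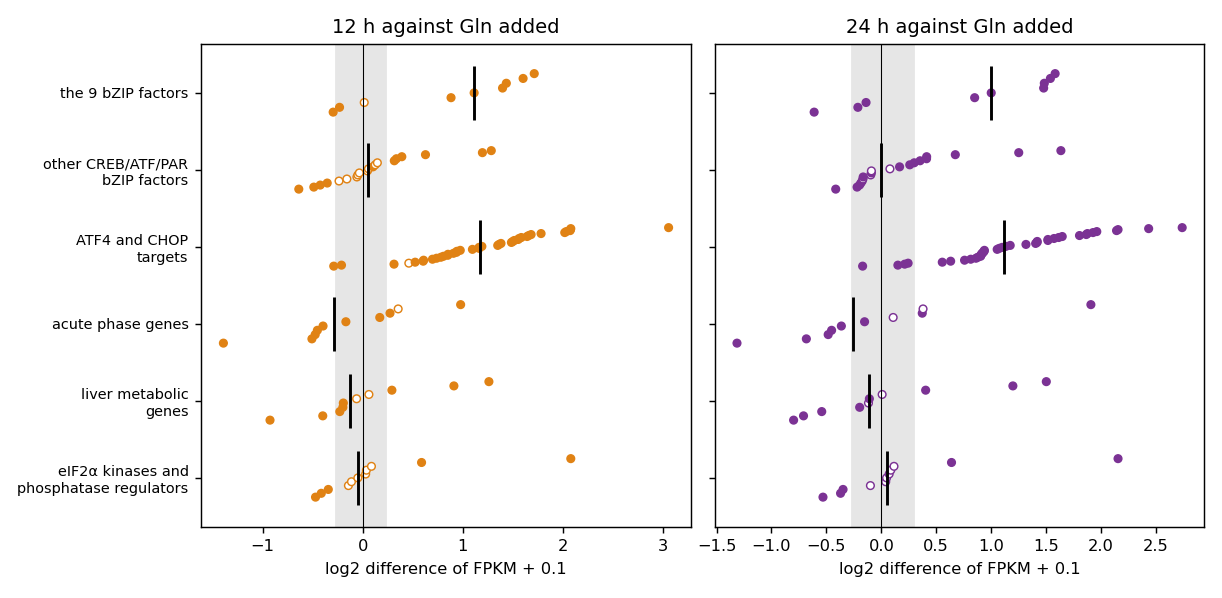
Difference of log2(FPKM + 0.1) against Gln added (x axis) at 12 h (left) and 24 h (right) for the tested genes of each list; filled points had an adjusted p below 0.05 from limma, open points did not, black bars are list medians and the grey band spans the quartiles of all 11880 genes. The ATF4 and CHOP targets have their median at 1.18 and 1.12, far to the right of the band, while the median of the other bZIP factors is at 0.05 and -0.01.

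Of 11 genes of eIF2α kinases and phosphatase regulators, 2 were higher, 3 lower and 6 not called at each time, with medians of -0.05 and 0.05. Of all genes tested, 60.2% were called at 12 h (29.1% higher and 31% lower) and 64.7% at 24 h (33% higher and 31.7% lower). PPP1R15A is also in this list. PPP1R15B, the constitutive counterpart of GADD34, rose from 7.17 ± 0.210 FPKM to 10.9 ± 0.921 and 11.2 ± 0.753 (SD, n = 3), a log2 fold change of 0.59 and 0.64 (limma adjusted p = 3.07e-05 and 1.29e-05). The 3 that fell were kinases. EIF2AK4, which encodes GCN2, went from 22.9 ± 0.271 FPKM to 18.05 ± 0.208 at 12 h and 18.01 ± 1.07 at 24 h, EIF2AK1, which encodes the heme-regulated kinase HRI, from 58.4 ± 0.682 to 43.8 ± 1.16 and 40.4 ± 0.312, and EIF2AK2, which encodes PKR, from 9.23 ± 0.299 to 6.64 ± 0.465 and 7.12 ± 0.280 (SD, n = 3). Their log2 fold changes at 24 h were -0.35, -0.53 and -0.37 (largest limma adjusted p = 0.000241).

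Liver genes known to be bound by C/EBP factors went both ways. Of 15 acute phase genes, 13 were in the table and 10 were tested. At 12 h 3 were higher and 6 lower (median -0.28), and at 24 h 2 were higher and 6 lower (median -0.26). Of all genes tested, 29.1% were higher and 31% lower at 12 h, and 33% and 31.7% at 24 h. SERPINA3, a protease inhibitor, rose from 83.5 ± 1.56 FPKM to 165 ± 5.99 at 12 h and to 314 ± 17.2 at 24 h (SD, n = 3), a log2 fold change of 0.98 and 1.91 (limma adjusted p = 2.67e-08 and 1.86e-10). Complement C3 rose by 0.17 and 0.37, and ORM2 rose by 0.27 at 12 h and was at 0.11 at 24 h (adjusted p = 0.092). HP, haptoglobin, fell from 39.3 ± 4.21 FPKM to 14.9 ± 0.485 and 15.7 ± 1.55 (SD, n = 3). The fibrinogen genes FGA, FGB and FGG had log2 fold changes of -0.51 to -0.36 at either time, and HPX, hemopexin, had log2 fold changes of -0.45 and -0.68 from 3.52 FPKM (limma adjusted p = 0.0327 and 0.00361). At 12 h HPX was at -0.27 and did not pass without the 12 h replicate 3, and its call was also lost without any 1 of the Gln-added libraries.

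Of 12 liver metabolic genes, 10 were tested. At each time 3 were higher and 5 lower, with medians of -0.13 and -0.11. Among all genes tested, 29.1% were higher and 31% lower at 12 h, and 33% and 31.7% at 24 h. TAT, tyrosine aminotransferase, rose from 0.907 FPKM to 2.32 and 2.21 (log2 fold change 1.26 and 1.20), G6PC1, glucose-6-phosphatase, from 1.74 to 3.36 and 5.11 (0.91 and 1.5), and ASS1, argininosuccinate synthase, from 56.9 to 69.8 and 75.3 (0.29 and 0.40), all with an adjusted p of at most 9.93e-05 from limma. FABP1, a fatty acid-binding protein, fell from 228 ± 15.5 FPKM to 120 ± 3.75 and 131 ± 1.91 (SD, n = 3). SERPINA6, which carries cortisol, had log2 fold changes of -0.40 and -0.71, and CPS1, the first enzyme of the urea cycle, of -0.23 and -0.54 (largest limma adjusted p = 0.00663). Of the 10 hepatocyte lineage markers, 6 were lower at 12 h and 5 at 24 h, against 31% and 31.7% of all genes tested. Among them AFP (-0.31 and -0.51) and APOA1 (-0.36 and -0.41) were lower at both times. These lists share liver genes and the 3 Gln-added libraries with the results above.

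The genes whose profiles over the 9 libraries lay closest to those of 4 bZIP genes were found by the root mean square difference of log2(FPKM + 0.1) after the mean of the Gln-added libraries was subtracted. For DDIT3 they were MARS1 (0.0613), ERRFI1 (0.0726) and PKD1 (0.0727), with MARS1 overlapping DDIT3 on the other strand as described. For ATF3 they were CARS1 (0.0855), MARS1 (0.0954) and MAP1LC3B (0.0962), and for CEBPB they were STC2 (0.0786), GARS1 (0.0792) and MAP1LC3B (0.0817). CARS1, MARS1 and GARS1 encode aminoacyl-tRNA synthetases, and they and STC2 are in the list of ATF4 and CHOP targets. The closest profiles are by construction those of genes with rises of like size. That list was drawn up with earlier results of these data known, and most of its genes rose, so this overlap only describes it. For ATF4 the closest were NKAP (0.0215), IRF2BP2 (0.0258) and SIK3 (0.0369), none of them in any list, with log2 fold changes of 0.88, 0.90 and 0.90 at 12 h.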

How the data were processed

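RNA-seq of HepG2 cells was analysed for 3 groups of 3 libraries, grouped by the labels. The values that the authors deposited are FPKM, with no other scaling between libraries stated. According to the methods, the authors had reads aligned to GRCh38 with STAR and tested differences with DESeq2. The submitters' processing notes name HTSeq and R 3.2.0. The annotation is not given in the sources used here. The labels name another library kit (VAHTS Universal V6) than the methods (a strand-specific NEBNext kit), and whether strand was used in counting is not given. Each of the 9 columns carries a name that the labels give to 1 library.

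FPKM are not counts, so differences were tested with limma 3.58.1 under R 4.3.3 (lmFit, eBayes with a trend) on log2(FPKM + 0.1) with Benjamini-Hochberg adjustment over the 11880 genes that averaged 0.5 FPKM or more. A fold change on this scale understates that of low genes. From the step between low values, which is the worth of 1 fragment, whole fragments were recovered for 100% of the 22587 genes (relative tolerance 1e-07). No 2 replicates were alike within sampling noise. Both steps were tested on simulated data. The 9 genes and the gene lists were chosen with earlier results of these data known. Named from each list were the 3 largest rises and falls past the threshold at either time among genes averaging 1 FPKM or more, and for ATF3, ATF4, CEBPB and DDIT3 the 3 closest profiles; CEBPB-AS1, NUP62 and other overlapping genes were added after their overlap was seen. Genes without a row in the table (CRP, SAA1, LUM, KDR, TEK, CD3E, HBB and PTPRC of the lists) were not analysed here. A gene that the rule selects is not reported here.

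Positions and upstream windows come from GENCODE v44 on GRCh38. The alternatives were other pseudocounts (1 and 0.01), other filters (none, or an average of 1 FPKM), libraries rescaled to equal totals or by median ratios, fits of only the groups compared, a block for the replicate number, eBayes with no trend, and leaving out each library. Voom on the recovered fragments and canonical transcript lengths were added after the data were seen. Plots were made in Python 3.11.15 (matplotlib 3.10.9).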

Additional observations from a re-analysis of the deposited data

Results flagged for a closer look

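The effect of Gln deprivation differed between 24 h and 12 h for some of the named genes, by limma's direct test of the libraries at 24 h against those at 12 h (adjusted p below 0.05 over 11880 genes; differences are on the log2 scale). Among the 9 bZIP genes these were CEBPA, with a difference of -0.32, and ATF5, with -0.23. Of the ATF4 and CHOP targets, ADM2 rose further (0.35) and HERPUD1 went from lower to higher (0.36). The other bZIP factors CREB3 (0.25) and CREB3L4 (0.29) had come part of the way back at 24 h, and the kinase gene EIF2AK1 fell further (-0.12).

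Of the acute phase genes, SERPINA3 had the largest difference (0.93), followed by C3 (0.20), ORM2 (-0.17) and FGA (0.11). Of the liver metabolic genes, G6PC1 rose further (0.59), and CPS1 (-0.31) and SERPINA6 (-0.31) fell further. AFP among the hepatocyte lineage markers fell further (-0.20). LYZ was lower at 12 h and at 0.05 against Gln added at 24 h (limma adjusted p = 0.305), a difference of 0.51, and CD68 fell further (-0.37). The call of ORM2 was lost under 11 of the alternatives, and those of EIF2AK1 and FGA under 7 each. CREB3L4 lost its call with voom, and ATF5 without the 12 h replicate 1 or the 24 h replicate 3.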

How the results depend on the processing

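The 9 genes kept their direction against Gln added under each alternative run, except ATF5 at 12 h (0.02), which was at -0.01 without replicate 3 with Gln added or replicate 1 at 12 h and ranged up to 0.05 without a library. CEBPD at 24 h (-0.14) lost its call with FPKM rescaled to the same total (-0.09), with voom (-0.14) and in 4 of the fits that left out a library, which ranged from -0.16 to -0.12. Between 24 h and 12 h, 2 of the 9 genes were called, 4 with median-ratio scaling and 1 to 3 without a library (1 without the 12 h replicate 1 or the 24 h replicate 3). ATF5 then ranged from -0.27 to -0.17 without a library, CEBPB from -0.03 to 0.11, JDP2 from -0.00 to 0.14 and DDIT3 from -0.17 to -0.11. Median-ratio scaling gave calls for CEBPG (-0.15) and DDIT3 (-0.17) and moved the share of higher genes among those called at 24 h against 12 h from 47.7% to 33.4%. The number of list genes called at 24 h against 12 h moved for the other bZIP factors from 4 to 2 (no filter, or only the groups compared; 2 to 4 without a library), for ATF4 and CHOP targets from 11 to between 6 and 14 without a library, for acute phase genes from 4 to 2 (no filter, only the groups compared, or no trend; 2 to 3 without a library) and for eIF2α regulators from 2 to 1 (only the groups compared, or no trend; 1 to 3 without a library). Deviations from the group means had correlations over genes of -0.136 to 0.283 for samples with the same replicate number. For samples with different numbers they were -0.467 to 0.296. Deviations of 3 libraries from their own mean constrain each other, so these values cannot tell whether samples with the same number were paired. With the replicate number as a block, 7341, 7802 and 2586 genes were called at 12 h, at 24 h and between the times, against 7147, 7686 and 2386 without it, and liver metabolic genes called between the times went from 3 to 5. Of the 2744 values under alternatives, 2611 kept their side of the threshold or stayed close to their value. The causes of these changes were not tested.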
